A study of Mus musculus with 12 samples.

Results

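Axon guidance ligands and receptors were examined across the 3 treatments of neonatal muscle fibroblasts. They comprise the semaphorins of classes 3 to 7 with the plexins and neuropilins that receive them, the ephrins with the Eph receptors, the slits with the roundabouts, and the netrins with the Unc5 receptors. Members were chosen by symbol alone, as the protein-coding genes of these 9 families that the tables list. This gave 68 of 28995 genes, made up of 20 semaphorins, 9 plexins, 2 neuropilins, 8 ephrins, 14 Eph receptors, 3 slits, 4 roundabouts, 4 netrins and 4 Unc5 receptors. Epha6, Epha10, Ntn5 and Robo4 were not listed in every table, which left 64 members in all 3 tables.

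These families pass positional signals between cells. Class 3 semaphorins are secreted and mostly bind a neuropilin that is joined to a plexin A receptor, whereas Sema3e binds Plxnd1 directly, and the other semaphorin classes of vertebrates are largely membrane-bound. Ephrins are ligands held on the cell surface, so that an Eph receptor tyrosine kinase meets its ligand only where cells touch, and ephrins of type B can signal back into the cell that carries them. Slits are secreted ligands of the roundabouts, and netrins are laminin-related proteins that attract through Dcc and neogenin and repel through Unc5 receptors. The families are best known for steering axons, but they also act on blood vessels and on the mesenchyme of the limb, where connective tissue cells carry cues for incoming motor axons and vessels.

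The cells were primary fibroblasts from the hindlimb muscles of wild-type C57 BL/10 mice on postnatal day 3, enriched by their adherence to plastic and expanded in culture. Cells of 2 mice were kept in charcoal-stripped serum, which is depleted of steroids, and then treated for 48 hours with 1 µM aldosterone, 1 µM spironolactone or the DMSO vehicle, on 2 plates for each mouse and treatment. Aldosterone is the steroid agonist of the mineralocorticoid receptor and spironolactone is an antagonist of that receptor. Each treatment had 4 libraries, each named here by its sample number and then its replicate number, so that 2_1 is the first replicate of sample 2. The labels do not say which number is the mouse, so p-values measure the spread between these libraries, part of which is between plates of the same animal. Where the sample number enters as a block and is the mouse, that part is most of the spread.

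Reads counted on genes ranged from 19136923 to 30219185 per library. Values below are normalized counts (reads divided by a size factor for each library) within a table of 2 treatments, unless they are given as levels, which are RPKM (reads scaled to the length of the gene and to all counted reads of the library). Known targets of steroid receptors responded, with Fkbp5 at 6330.1 ± 473 normalized counts in aldosterone-treated fibroblasts and 330.4 ± 38.7 in vehicle-treated ones (SD, n = 4 each), and log2 fold changes of 2.69 for Tsc22d3, 1.83 for Per1 and 6.67 for Zbtb16. Fibroblast markers had a summed level between 6981 and 7425 in vehicle, and the macrophage, myoblast, neuron and Schwann cell lists each stayed below 8 in every vehicle library. The smooth muscle and pericyte list was well above these, at 40.7 to 54.9 in vehicle and 31.2 to 49.0 with aldosterone. Most of it was Cspg4, at 32.5 in vehicle. With aldosterone, 3 of 10 fibroblast markers were higher (Pdgfra, Ly6a and Vim) and 1 was lower (Col3a1). Of the 3 tenocyte markers, Scx and Tnmd were lower, and their list summed to 108.9 to 123.4 in vehicle and 79.9 to 86.4 with aldosterone. Of the 6 endothelial markers Kdr, a receptor of Vegf, was higher (log2 fold change 1.88), and the list summed to 4.18 to 4.54 in vehicle and 5.36 to 5.74 with aldosterone. Most of that sum was Tek, a receptor of angiopoietins, at 3.996 ± 0.229 and 4.58 ± 0.436 (adjusted p = 0.0694, and 0.0147 with the sample number as a block). The vehicle levels of the defining markers Pecam1 and Cdh5 were 0.0446 and 0.0954. None of the 6 macrophage or 5 smooth muscle markers passed without a block. With the sample number as a block, 3 fibroblast markers were higher and the other 7 lower, 2 of 5 smooth muscle, 2 of 5 neuron and all 3 tenocyte markers were lower, 2 of 6 endothelial markers were higher, and 0 macrophage markers passed. The part of these shifts in the results below was not tested, and in bulk RNA a smaller number of cells of a type and less RNA per cell cannot be told apart.

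In vehicle-treated fibroblasts, 42 of the 68 members had a level of at least 1 RPKM. The highest was Sema3c, a secreted semaphorin, at 129.7 ± 15.0 (SD, n = 4). Behind it came Plxnb2, the receptor of Sema4c, at 71.5 ± 2.34, then Slit3 at 54.7 ± 2.07 and Plxna1 at 50.6 ± 1.11. The lowest Slit3 library, at 52.6, was just above the highest Plxna1 library, at 52.1. The leading members of the other families were Unc5b at 28.6 ± 6.27, the ephrin Efnb1 at 26.2 ± 0.631, Epha2 at 19.0 ± 2.87, Nrp2 at 18.8 ± 3.78, Ntn4 at 6.99 ± 0.357 and Robo1 at 5.01 ± 0.429. The ranges of Unc5b and Efnb1 overlapped, as did those of Epha2 and Nrp2, so neither order holds beyond the spread of the libraries. Each of the 9 families thus had at least 1 member with a mean level of 5 or more. For the roundabouts this rests on the mean of Robo1, whose vehicle libraries had 4.825, 4.714, 4.861 and 5.649. At the other end Epha6 had 0 reads in the vehicle libraries, while Sema3e stood at 0.958 and Epha5 at 0.145.

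**Figure D1:**
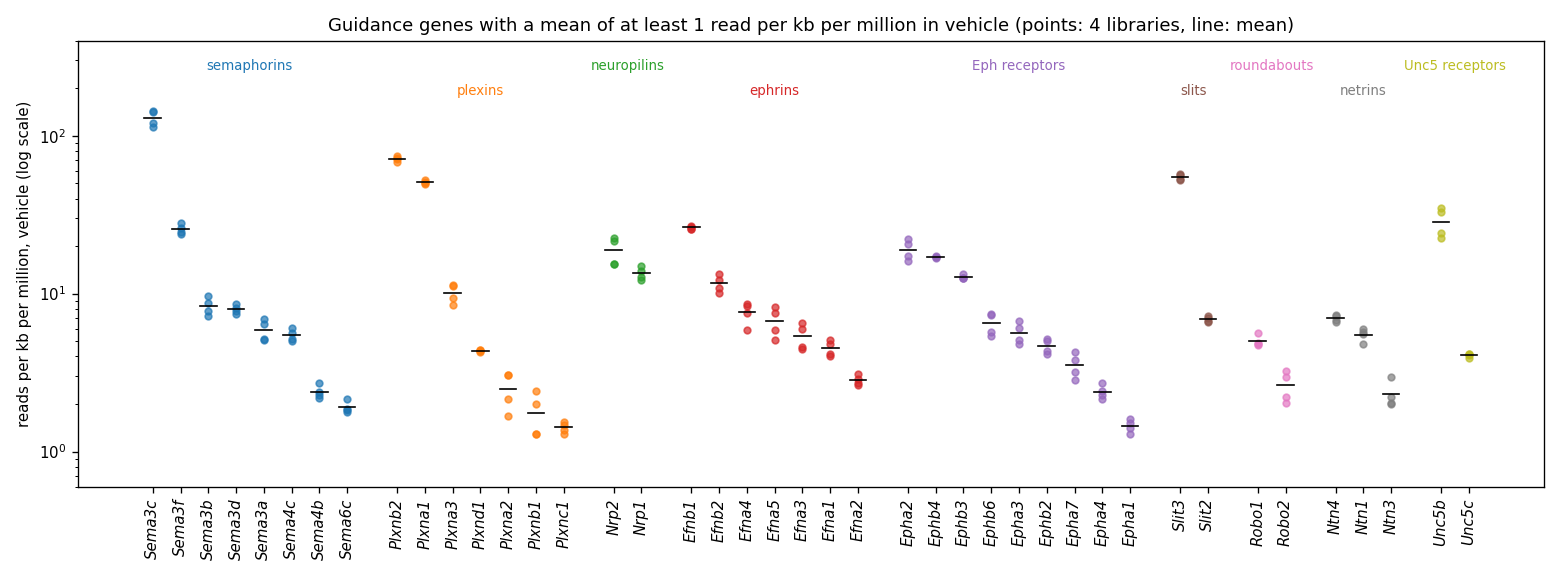
Levels of the 42 guidance genes at 1 RPKM or more in vehicle (vertical log axis), grouped by family, with a point for each of the 4 libraries and a bar at their mean. Sema3c stands at the top at 129.7 and every family has a member with a mean of 5 or above.

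Aldosterone compared to vehicle treatment changed 21 of the 66 members tested, 6 upward and 15 downward (limma, Benjamini-Hochberg adjusted p of at most 0.05 over all genes). The 6 higher genes were Sema3e, Sema6b, Sema6d, Plxna2, Nrp1 and Efnb1. The lower genes included Sema3c, Plxnc1, Efnb2, 5 Eph receptors, Robo1, Slit2, Ntn4 and Unc5c. The higher share, 9.09% of members, stands beside 5.68% of all 27319 genes, and the lower share, 22.7%, beside 4.74%. Since guidance genes are expressed more often than the average gene, the same was taken over expressed genes, those that averaged 10 normalized counts or more. Of 59 such members 10.2% were higher and 25.4% were lower, beside 9.65% and 8.09% of 15245 genes. The median log2 fold change over the 66 members was -0.23, with 18 above 0 and 48 below, and that over all genes was -0.01. The split of signs was similar for spironolactone against the same vehicle libraries, with 21 of 68 members above 0 and 47 below. The median there was smaller, at -0.06, and that over all genes was 0.003. With a change of at least 1 on the log2 scale also required, Sema3e passed upward with aldosterone and Sema3c and Epha5 downward, beside 1.4% and 0.666% of all genes. The downward pair is near the limits of this rule, with 1 left after TMM scaling and 0 to 4 members passing when a library was left out. The aldosterone libraries lay wholly above the vehicle libraries for 7 of the 59 expressed members and wholly below for 15, where 12.4% and 11.2% of all expressed genes did so. A separation of this kind gives an exact two-sided permutation p of 0.0286, the smallest that 4 against 4 libraries allow.

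**Figure D2:**
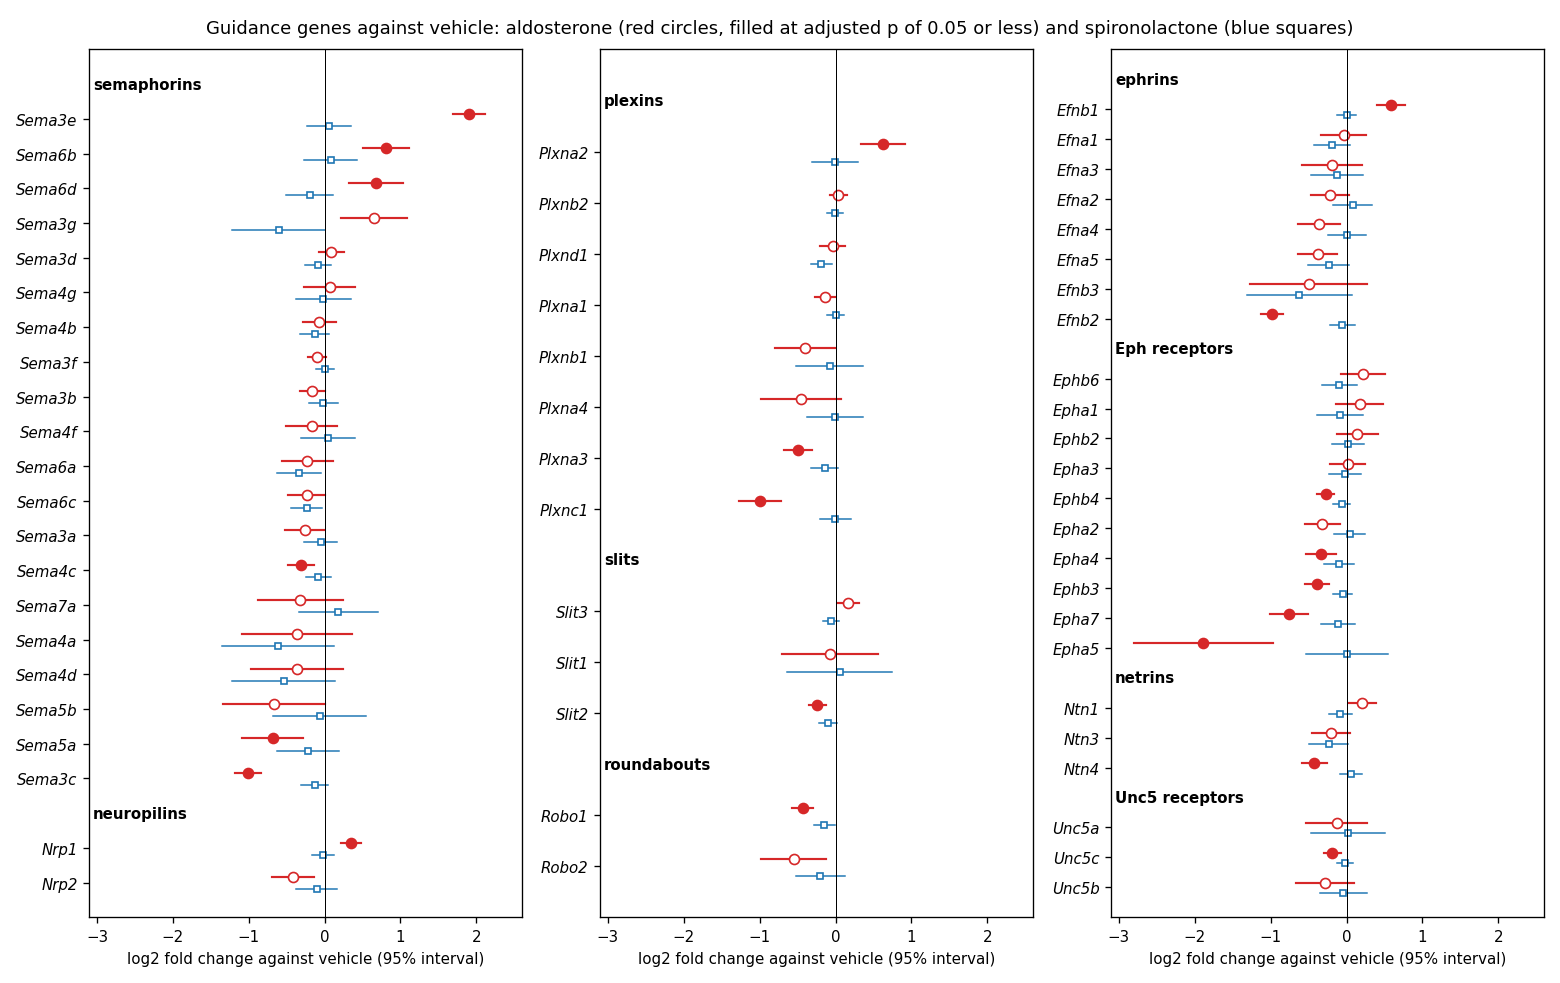
Log2 fold changes against vehicle with 95% intervals for the expressed members, by family (aldosterone red, filled where the adjusted p was 0.05 or less; spironolactone blue). Sema3e lies farthest to the right at 1.90 and Epha5 farthest to the left among filled points at -1.89, while most spironolactone intervals include 0.

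The sequences around the starts of the 6 called members with the largest changes against vehicle, and of Efnb1 beside its relative Efnb2, are shown because the mineralocorticoid receptor is a transcription factor that binds DNA near its target genes. RefSeq windows of 300 bases (250 before the start and 50 from it, build GRCm38.p6) were found for 59 of the 68 members. They were searched on both strands for the GC box GGGCGG (or CCGCCC) and for AGAACA (or TGTTCT), the core hexamer that steroid receptors of this class bind. In the lines that follow capitals mark GC boxes, except for Sema6b, where they mark the hexamer. All are read 5′ to 3′ along the strand of the gene.

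Sema3e, higher, chr5:14025026-14025325 on the + strand: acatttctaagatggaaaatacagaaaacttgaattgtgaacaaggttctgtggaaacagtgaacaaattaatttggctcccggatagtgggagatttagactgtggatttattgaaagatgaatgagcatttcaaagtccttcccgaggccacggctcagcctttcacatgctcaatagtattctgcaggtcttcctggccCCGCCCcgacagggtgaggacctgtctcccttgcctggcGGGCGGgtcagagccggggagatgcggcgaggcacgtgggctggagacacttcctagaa
Epha5, lower, chr5:84417333-84417632 on the - strand: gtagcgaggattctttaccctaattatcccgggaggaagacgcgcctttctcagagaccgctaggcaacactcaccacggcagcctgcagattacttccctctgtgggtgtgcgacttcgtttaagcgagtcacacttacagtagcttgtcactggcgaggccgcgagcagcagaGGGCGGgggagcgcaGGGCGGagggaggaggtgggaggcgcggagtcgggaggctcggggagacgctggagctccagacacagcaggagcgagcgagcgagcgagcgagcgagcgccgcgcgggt
Sema3c, lower, chr5:17574566-17574865 on the + strand: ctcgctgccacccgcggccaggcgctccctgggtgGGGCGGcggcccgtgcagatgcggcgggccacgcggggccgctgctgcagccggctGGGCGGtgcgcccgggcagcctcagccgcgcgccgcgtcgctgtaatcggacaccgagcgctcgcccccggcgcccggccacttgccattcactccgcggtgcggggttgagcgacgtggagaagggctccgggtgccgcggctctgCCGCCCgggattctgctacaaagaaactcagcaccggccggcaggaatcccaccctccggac
Plxnc1, lower, chr10:94944796-94945095 on the - strand: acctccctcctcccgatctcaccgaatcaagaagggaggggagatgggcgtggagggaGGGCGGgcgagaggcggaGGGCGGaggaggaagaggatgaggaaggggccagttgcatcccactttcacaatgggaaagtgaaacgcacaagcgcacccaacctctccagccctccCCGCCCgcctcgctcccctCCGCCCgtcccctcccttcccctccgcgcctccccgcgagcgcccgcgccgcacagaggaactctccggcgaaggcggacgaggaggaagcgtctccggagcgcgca
Efnb2, lower, chr8:8661193-8661492 on the - strand: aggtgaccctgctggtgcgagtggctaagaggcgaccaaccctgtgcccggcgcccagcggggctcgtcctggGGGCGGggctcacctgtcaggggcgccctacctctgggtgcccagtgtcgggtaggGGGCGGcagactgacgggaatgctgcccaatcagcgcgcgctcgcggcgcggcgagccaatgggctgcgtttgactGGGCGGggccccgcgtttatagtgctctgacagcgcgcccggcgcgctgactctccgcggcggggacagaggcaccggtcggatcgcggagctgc
Efnb1, higher, chrX:99135811-99136110 on the + strand: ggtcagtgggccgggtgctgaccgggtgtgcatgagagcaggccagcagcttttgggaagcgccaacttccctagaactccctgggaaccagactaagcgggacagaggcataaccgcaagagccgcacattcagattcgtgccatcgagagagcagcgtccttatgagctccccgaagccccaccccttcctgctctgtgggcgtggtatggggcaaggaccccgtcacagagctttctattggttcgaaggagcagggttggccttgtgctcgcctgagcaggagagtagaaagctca
Sema6b, higher, chr17:56133803-56134102 on the - strand: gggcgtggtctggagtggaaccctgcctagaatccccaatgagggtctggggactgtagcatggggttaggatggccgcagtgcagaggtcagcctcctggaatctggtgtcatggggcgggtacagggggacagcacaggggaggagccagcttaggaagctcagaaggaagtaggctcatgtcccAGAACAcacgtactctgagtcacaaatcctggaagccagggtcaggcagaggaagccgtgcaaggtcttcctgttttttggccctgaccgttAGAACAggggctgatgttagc

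The Sema3e window held 2 GC boxes in 50.7% G and C, that of Epha5 held 2 in 64.3%, those of Sema3c and Efnb2 held 3 each in 75.7% and 72.3%, that of Plxnc1 held 4, and that of Efnb1 held 0. GC boxes were in 70.7% of the 75 windows of the members and in 46.2% of 21263 windows of protein-coding genes. They were in 6 of the 8 windows of the higher members (75%) and in 15 of the 17 of the lower members (88.2%). The member windows were also richer in G and C, with a median of 64.3% beside 56.3%. The part of this composition in the GC box shares was not tested. The hexamer was in 8 windows, or 10.7%, of the members and in 16.2% of all. By direction, it was in 3 of the 8 windows of the higher members (37.5%) and in 1 of the 17 of the lower members (5.88%). The 3 windows are not 3 genes. They belong to Sema6b, both of whose windows held it, and to Sema6d, whose call was lost without any single library. The other Sema6b window, chr17:56140294-56140593, is not shown above. It occurred in windows of Sema6b, Sema6d, Plxna3, Plxnd1 and Sema4d. The full palindrome, a pair of hexamers facing each other across 3 bases, was in 0 windows of the members and in 2 of all genes. A match describes letters in the window and does not show that a protein binds there.

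Among semaphorins, 3 of 20 rose and 3 fell with aldosterone, beside 9.65% and 8.09% of expressed genes. Sema3e (chr5:14075290-14306703 on the + strand in the coordinates of the tables, for which the submitters' processing notes name mm39) was the member that rose the most. It had 182, 200.04, 231 and 225 normalized counts in the vehicle libraries 1_1, 1_2, 2_1 and 2_2, and 736, 740.0, 757 and 911 in the aldosterone libraries in the same order. Every treated library was above every vehicle library, and the rise was 3.74-fold (log2 fold change 1.90, SE 0.10, 95% interval 1.70 to 2.11, limma adjusted p = 9.97e-10). Its receptor Plxnd1 had 730.1 ± 82.9 normalized counts with aldosterone and 746 ± 14.8 with vehicle (log2 fold change -0.04, adjusted p = 0.841).

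Sema3c, the highest-level member, moved the other way. Its vehicle libraries had 20552, 19215, 23619 and 23864 normalized counts and its aldosterone libraries 9727, 10198, 11747 and 11733. The groups did not overlap, and Sema3c fell by 50.2% (log2 fold change -1.01, SE 0.08, adjusted p = 2.59e-07), which is just past the fold threshold and is not past it without vehicle 2_1 (-0.97) or 2_2 (-0.96) or without aldosterone 1_1 (-0.96) or 1_2 (-0.98). Its level after treatment, 62.7 RPKM, remained the highest among the semaphorins. Of the class 3 semaphorin total, Sema3c made up 72.5% ± 1.17 in vehicle and 56.8% ± 2.06 with aldosterone, and Sema3e 0.536% ± 0.0346 and 3.17% ± 0.256 (SD, n = 4 each). The ratio of their levels within a library went from 135.6 ± 9.13 to 18.0 ± 1.53, so Sema3e stayed far below Sema3c in absolute level.

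The other semaphorins that rose were of class 6, transmembrane ligands of plexins of type A. Sema6b went from 65.4, 66.4, 73.2 and 74.1 in vehicle to 111, 134, 135 and 115 with aldosterone (log2 fold change 0.81, SE 0.14, adjusted p = 0.00102). Sema6d had 116, 121, 107 and 150.3 in vehicle and 284, 178, 189 and 155 with aldosterone, with a gap of a few counts between the highest vehicle and the lowest treated library (0.67, SE 0.17, adjusted p = 0.0141). The call of Sema6d was lost without any single library of the 8 (adjusted p from 0.0513 to 0.141). Sema5a, a transmembrane semaphorin with thrombospondin repeats, had 209, 229, 364 and 365 and 128, 172, 218 and 198, and its groups overlapped. It was lower (-0.68, SE 0.19, adjusted p = 0.028), but this too was lost without any single library (0.0827 to 0.258). Sema4c, a ligand of Plxnb2, was lower (log2 fold change -0.31, adjusted p = 0.0156), with the call lost in 5 of 8 such fits.

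Among the called receptors of semaphorins, Plxnc1 changed the most. Plxnc1, the receptor of Sema7a, had 275, 257, 301 and 288 normalized counts in vehicle and 107, 137, 170.3 and 152 with aldosterone. It fell by 49.9% (log2 fold change -0.997, SE 0.13, adjusted p = 6.35e-05) with no overlap of the groups, just short of the fold threshold. Its ligand Sema7a was scarce, at 30.6 ± 5.09 normalized counts in vehicle and 24.2 ± 3.69 with aldosterone (adjusted p = 0.564).

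Plexins of type A, the signalling partners of the neuropilins, moved in both directions. Plxna2 had 688, 875, 1217 and 1231 in vehicle and 1603, 1487, 1524 and 1411 with aldosterone, so that the treated libraries lay close together above a spread-out vehicle group (log2 fold change 0.63, SE 0.14, adjusted p = 0.00629). Plxna3 had 1611, 1739, 2067 and 2071 and 1302, 1174, 1501 and 1312, and fell (-0.50, SE 0.09, adjusted p = 0.00109). The Plxna2 call was lost in 6 of 8 fits without 1 library (adjusted p up to 0.15) and that of Plxna3 only without vehicle 2_2 (0.0506). Plxna1, the most abundant plexin of type A, went from 10795 ± 188 to 9844 ± 816 (-0.14, adjusted p = 0.207). The ratio of the levels of Plxna1 and Plxna2 was 21.7 ± 6.30 in vehicle and 12.4 ± 0.538 with aldosterone.

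Nrp1, a coreceptor of semaphorins and of Vegf, rose. It had 2873, 2951, 3191 and 3417 normalized counts in vehicle and 3848, 3866, 4152 and 3912 with aldosterone (log2 fold change 0.35, SE 0.06, adjusted p = 0.00102). Nrp2, its relative, had 4409, 4333, 5997 and 6174 and 3439, 3146, 4613 and 4461, which narrowly missed the threshold (-0.42, adjusted p = 0.0502). Libraries of sample number 2 held more Nrp2 than those of sample number 1 in each treatment, and the adjusted p with the sample number as a block was 2.71e-09. The level of Nrp1 over that of Nrp2 went from 0.732 ± 0.0881 in vehicle, below 1 in each library, to 1.25 ± 0.207, above 1 in each library.

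Both abundant ephrins of type B changed, in opposite directions. Efnb2, a marker of arteries and a ligand of Ephb4, had 1674, 1771, 1945 and 2133 normalized counts in vehicle and 931, 970.2, 941 and 947 with aldosterone. It fell by 49.4% (log2 fold change -0.98, SE 0.07, 95% interval -1.13 to -0.83, adjusted p = 7.11e-08), and the 4 treated libraries differed from each other by less than 40 counts. Efnb1 had 2236, 2170.2, 2079 and 2064 in vehicle and 3864, 3408, 2997 and 2684 with aldosterone. It rose by 50.1% (0.59, SE 0.09, adjusted p = 0.000209) with no overlap, though with a wider spread in the treated group. The ratio of the Efnb1 to the Efnb2 level was 2.28 ± 0.324 in vehicle, with a highest library of 2.65, and 6.79 ± 1.11 with aldosterone, with a lowest library of 5.63.

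**Figure D3:**
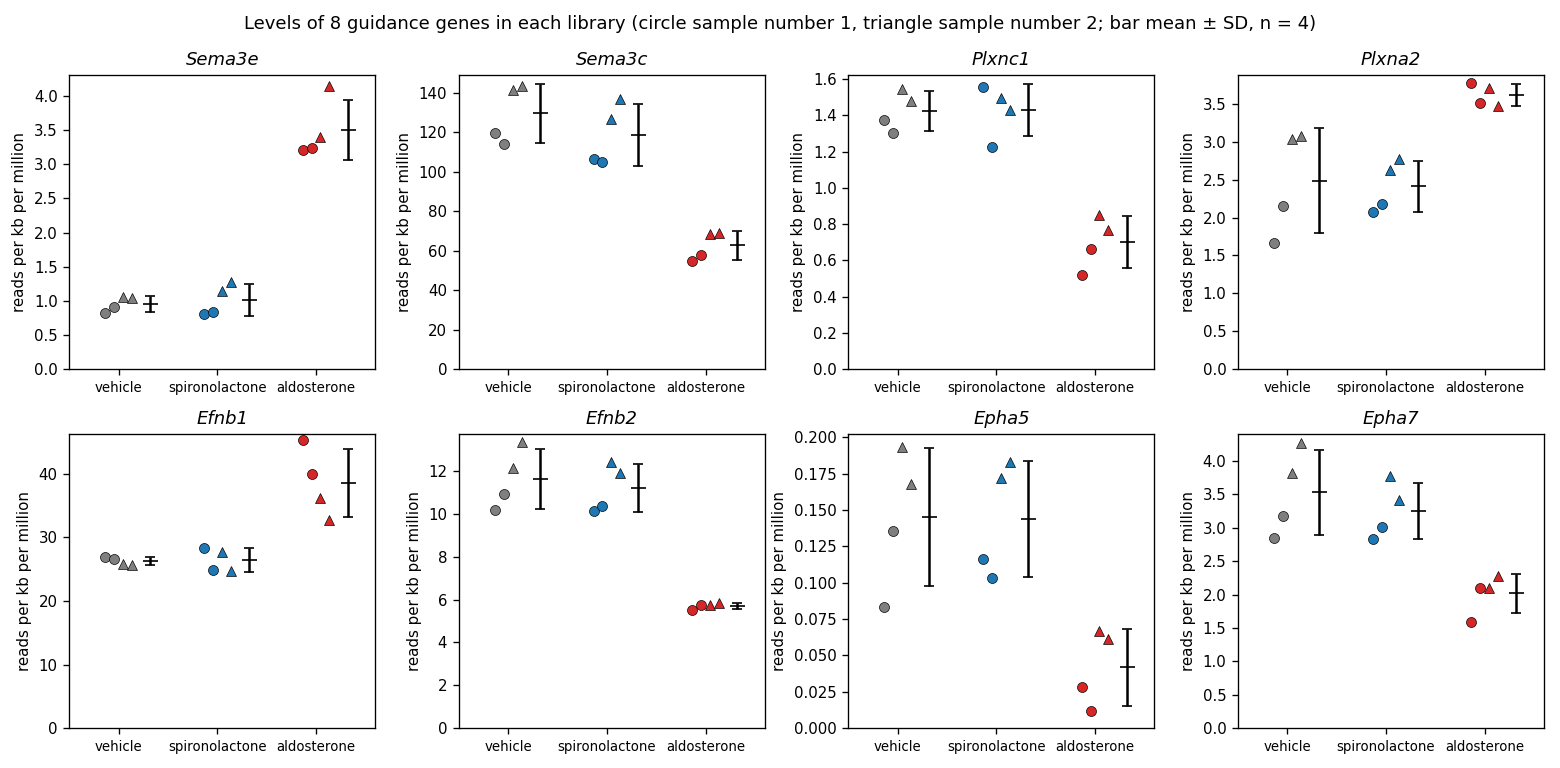
Levels of 8 guidance genes in RPKM, with a point for each library (circles sample number 1, triangles sample number 2) and the mean ± SD of 4 libraries at the side of each treatment. Sema3e, Plxna2 and Efnb1 are higher in the aldosterone libraries and Sema3c, Plxnc1, Efnb2, Epha5 and Epha7 are lower, with the spironolactone libraries near vehicle.

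Of the 13 Eph receptors tested, 5 fell and 0 rose, beside 4.74% and 5.68% of all genes. Epha5, a receptor of ephrins of type A, had 33.6, 53.7, 75.7 and 65.5 normalized counts in vehicle and 11.6, 4.82, 26.7 and 24.3 with aldosterone. It fell by 73.0% (log2 fold change -1.89, SE 0.43, adjusted p = 0.0083), a large change in a gene of few reads. Leaving out any single library ended the call (adjusted p from 0.0509 to 0.134), although the groups did not overlap. Epha7 rests on more reads, with 678, 744, 882 and 985 in vehicle and 390.1, 513, 499 and 535 with aldosterone (-0.76, SE 0.12, adjusted p = 0.000265). That call was kept without each of the libraries in turn. The remaining receptors fell by less. Ephb3 was at -0.39 (adjusted p = 0.00199), Ephb4 at -0.28 (0.00291) and Epha4, which binds ephrins of both types, at -0.34 (0.0274). The Ephb3 call was lost without vehicle 2_2 (0.0528) or aldosterone 1_2 (0.0541), and that of Epha4 in 6 of 8 fits. The ligands of Epha5 did not pass in limma without the block, with log2 fold changes of -0.04 for Efna1, -0.22 for Efna2, -0.19 for Efna3, -0.36 for Efna4 and -0.38 for Efna5 (adjusted p = 0.0562 for the last). Efna5 passed with DESeq2 (adjusted p = 0.0252) and under the block on sample number (0.000132), and Efna4 under that block (0.00982).

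The RNA of slits, netrins and their receptors changed by smaller amounts, and each member called without the block fell. Robo1, a receptor of slits, had 1914, 1839, 1874 and 2174 normalized counts in vehicle and 1501, 1326, 1463 and 1474 with aldosterone (log2 fold change -0.43, adjusted p = 0.000243). Its ligand Slit2 had 4026, 4185, 3965 and 4305 and 3570.3, 3445, 3480.3 and 3465 (-0.24, adjusted p = 0.00468). Both sets of libraries were separate. Slit3, the most abundant slit, was at 7830 ± 334 with vehicle and 8819 ± 728 with aldosterone (0.17, adjusted p = 0.116). Among netrins, Ntn4, a component of basement membranes, had 609.9, 584, 642 and 631 and 469, 499, 408 and 466 (-0.42, adjusted p = 0.00133). Unc5c, a netrin receptor, had 1803, 1835, 1867 and 1851 and 1600.5, 1603, 1607 and 1662, a fall of 12.0% on very even counts (-0.18, adjusted p = 0.0284). The log2 fold change of Ntn1 was 0.21 (adjusted p = 0.155).

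Libraries with the same sample number deviated together, and a fit with the sample number as a block changed the counts. This pairing was taken from the same data. If the sample number is the mouse, the p-values with the block measure mostly the spread between plates of the same animal, not between animals. With the block, 10 members were higher and 25 lower with aldosterone than with vehicle, 15.2% and 37.9% of those tested, beside 8.68% and 8.02% of all genes. The added higher members were Ephb6, Slit3, Ntn1 and Sema3g, and the added lower ones were Nrp2, Robo2, Unc5b, Sema3a, Plxna1, Plxna4, Plxnb1, Efna4, Efna5 and Epha2. Robo2 shows the form of the data, with 910.2, 813, 1181 and 1288 in vehicle and 543, 474, 1004 and 938 with aldosterone. Its groups overlapped as a whole, but within each sample number the treated libraries were the lower ones, and its adjusted p was 0.107 without the block and 5e-07 with it. Unc5b, a netrin receptor that endothelial cells also carry, had 4916, 5183, 3268 and 3512 and 4652, 4219, 2678 and 2539 (0.426 without and 3.34e-05 with the block). Sema3g, a semaphorin that binds Nrp2, had 30.2, 36.1, 42.7 and 37.6 and 60.7, 58.8, 63.5 and 48.7 (0.65, adjusted p = 0.0567 without and 0.0337 with the block). Compared within each sample number, the aldosterone libraries lay wholly above the vehicle libraries for 8 expressed members and wholly below for 26 of 59, where 17.7% and 18.0% of all expressed genes were.

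The sample numbers themselves separated several members whatever the treatment. Over the 12 libraries, all 6 of one number lay above all 6 of the other for 11 of the 60 expressed members, or 18.3%, and for 5.77% of 15512 expressed genes. Unc5b, Efna3, Ephb2, Plxna4 and Sema3d were higher in sample number 1. Nrp2, Sema3a, Ephb6, Epha3, Robo2 and Plxnb1 were higher in sample number 2. Unc5b had levels from 27.3 to 35.1 in sample number 1 and 17.1 to 24.1 in sample number 2, and Nrp2 had 10.8 to 15.5 and 15.9 to 22.4. Whether a number marks a mouse or a culture cannot be told apart from the labels.

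**Figure D4:**
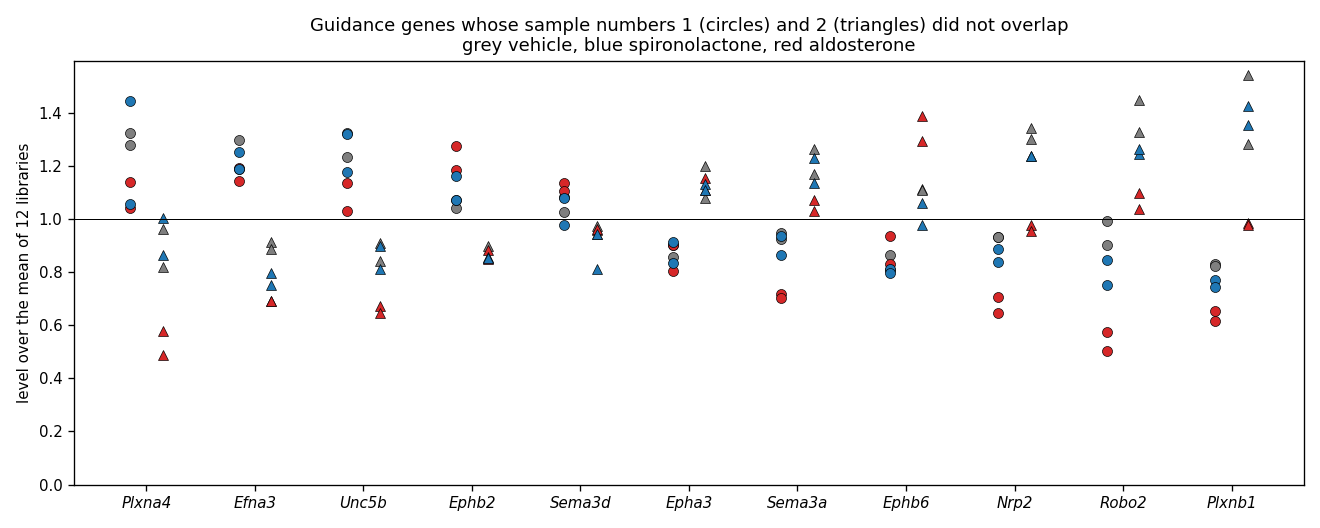
Levels of the 11 members in which the 6 libraries of a sample number all lie above those of the other, each divided by its mean over 12 libraries (circles sample number 1, triangles sample number 2; vehicle grey, spironolactone blue, aldosterone red). Unc5b has levels of 27.3 or more in sample number 1 and of 24.1 or less in sample number 2.

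The comparison of aldosterone with spironolactone sets the agonist against an antagonist of the receptor at the same 1 µM. It uses the same aldosterone libraries, normalized again in a table of their own, so its values stand beside those against vehicle and do not repeat them independently. Of 66 members 9 were higher (13.6%, beside 4.93% of all genes) and 11 were lower (16.7%, beside 3.96%). Over expressed genes the shares were 15.0% and 18.3% of 60 members, beside 8.39% and 6.78%. The median log2 fold change of the members was -0.14, and that over all genes was -0.01. With the sample number as a block 11 were higher and 24 lower, 16.7% and 36.4% beside 7.58% and 6.8%. The block added Ephb6 and Sema3d upward, and Nrp2, Robo2, Slit2, Unc5b, Unc5c, Sema3a, Sema4c, Sema5a, Plxna1, Plxna4, Plxnb1, Epha4 and Efna4 downward. Within both sample numbers 13 expressed members had each aldosterone library above the spironolactone libraries and 25 had each below, where 16.4% and 16.0% of expressed genes did.

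The higher members included secreted and transmembrane semaphorins. Sema3e had 183, 189, 254 and 284 normalized counts with spironolactone and 759, 760.5, 778 and 936 with aldosterone (log2 fold change 1.84, SE 0.12, adjusted p = 1.72e-08). Sema3g had 13.9, 28.4, 30.2 and 28.5 and 62.6, 60.4, 65.3 and 50.0 (1.26, SE 0.27, adjusted p = 0.00444), and its call was lost without aldosterone 1_2 (0.0571) or aldosterone 2_1 (0.0617). These were the members past the fold threshold upward, beside 1.38% of all genes. Epha5, with 47.2, 42.2, 69.1 and 73.4 and 12.0, 4.95, 27.4 and 25.0, was the one past it downward (-1.89, adjusted p = 0.00586), beside 0.521% of all genes, and kept its call only without aldosterone 2_1 among the 8 fits.

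Among the others, Plxna2 had 864, 917, 1081 and 1137 with spironolactone and 1652, 1528, 1566 and 1450.0 with aldosterone (0.64, adjusted p = 3.34e-05). Efnb1 had 2371, 2108, 2297 and 2037 and 3981, 3502, 3079.8 and 2757 (0.58, adjusted p = 0.000243), with the call lost without spironolactone 1_2 (0.0521). Sema6d was higher by 0.87 (adjusted p = 0.00194), Sema6b by 0.74 (0.003), Nrp1 by 0.37 (0.000396), Ntn1 by 0.29 (0.0282) and Slit3 by 0.23 (0.029) on the log2 scale. In the other direction Sema3c had 18443, 18366, 21753 and 23364 with spironolactone and 10023, 10481, 12072 and 12055 with aldosterone (-0.87, adjusted p = 1.26e-06). Efnb2 had 1684, 1743, 2039.6 and 1948 and 959.7, 997, 967 and 973 (-0.92, adjusted p = 3.38e-08), and Plxnc1 had 315, 251, 299 and 285 and 110.5, 141, 175 and 156 (-0.99, adjusted p = 5.42e-05). For none of these 3 genes did the groups overlap. Epha7 had 678, 731, 894 and 807 and 402, 527, 513 and 549 (-0.64, adjusted p = 0.000307). The smaller falls were those of Ntn4 (-0.49, adjusted p = 0.000395), Epha2 (-0.36, 0.0471), Plxna3 (-0.35, 0.00911), Ephb3 (-0.34, 0.013), Robo1 (-0.28, 0.00798) and Ephb4 (-0.21, 0.0287). The call of Epha2 was lost without any single library of the 8 (adjusted p from 0.13 to 0.338). Those of Ephb3, Plxna3, Ntn1 and Slit3 were lost in 7 of 8 such fits, those of Ephb4 and Sema6d in 6 and that of Robo1 in 5.

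**Figure D5:**
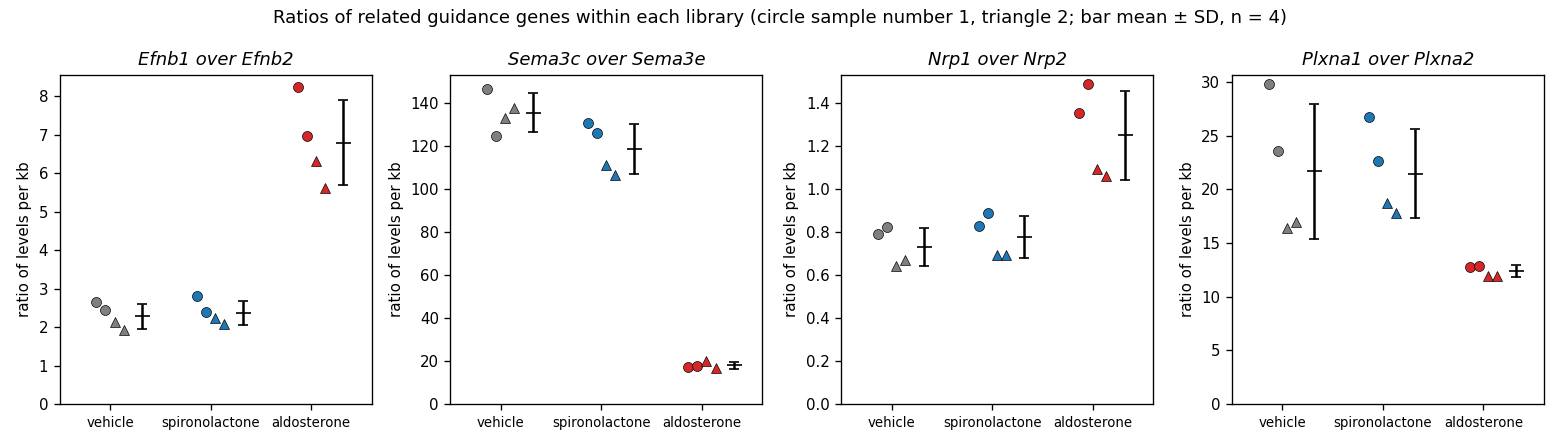
Ratios of the levels of related guidance genes within each library (circles sample number 1, triangles sample number 2; mean ± SD of 4 libraries at the side of each treatment). The Efnb1 to Efnb2 ratio is 5.63 or more in the aldosterone libraries and 2.80 or less in the vehicle and spironolactone libraries.

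Spironolactone compared to vehicle tests whether the antagonist changed these genes with the steroids of the serum removed. None of the 68 members passed (limma, adjusted p of at most 0.05), and 0.0% of 27598 genes did. Over the members the count was also 0 with DESeq2 or edgeR on the recovered reads and with the sample number as a block, where DESeq2 called 13 of all genes (0.0471%) and the block 97 (0.351%). At an unadjusted p under 0.05 there were 4 members, Plxnd1, Sema6c, Sema6a and Robo1, among 1251 genes in all. With the block there were 13 members, all lower with spironolactone, among 2127 genes, and the smallest adjusted p of a member was 0.155, that of Robo2. The spironolactone libraries lay wholly below the vehicle libraries for 5 of 60 expressed members (Ephb4, Plxnd1, Sema3g, Sema6a and Sema6c) and wholly above for 0, where 1.56% and 1.85% of expressed genes did. Plxnd1 had 758, 763, 729.9 and 752 normalized counts with vehicle and 701, 679, 661 and 599.6 with spironolactone (log2 fold change -0.19, 95% interval -0.33 to -0.05, adjusted p = 0.934). Sema6c was at -0.24 and Sema6a at -0.33.

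For the members that changed most with aldosterone, the intervals bound what spironolactone could have done. They ran from -0.23 to 0.35 for Sema3e, from -0.31 to 0.05 for Sema3c, from -0.22 to 0.11 for Efnb2, from -0.12 to 0.13 for Efnb1 and from -0.20 to 0.20 for Plxnc1 on the log2 scale. That of Epha5 was wider, from -0.54 to 0.55. The ratio of the Efnb1 to the Efnb2 level with spironolactone was 2.38 ± 0.309 and that of Sema3c to Sema3e was 118.8 ± 11.5, both with ranges that overlapped those of vehicle. A p that misses the threshold does not show that spironolactone and vehicle act alike, but none of these 6 intervals reached the log2 fold change seen with aldosterone. The 6 were picked by that change against the same vehicle libraries, so this gap was partly set by the choice.

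Other genes of the same pathways were counted from a list of 72 partners and signalling proteins. The list was chosen with earlier results of these data known. Its shares beside those of all genes are therefore a description and not a test of the pathways. With aldosterone compared to vehicle, 9 of the 72 were higher and 8 lower, or 12.5% and 11.1% (limma), beside 5.68% and 4.74% of all genes. Over those expressed, 13.8% and 12.3% of 65 stood beside 9.65% and 8.09%. Their median log2 fold change was -0.04. By role, 2 of 24 genes of semaphorin signalling were higher and 2 lower, 3 of 18 of ephrin and Eph signalling were higher and 0 lower, 2 of 13 partners of slits and roundabouts were higher and 4 lower, and 2 of 17 partners of netrins were higher and 2 lower. Rras2, a small GTPase of the R-Ras group on which plexins act, was higher by 0.86 on the log2 scale (adjusted p = 1.04e-07), and Srgap1, a protein bound by roundabouts, by 0.87 (2.94e-07). Rnd3, a small GTPase that binds plexins, was at -0.71 (1.99e-07) and Gpc1, a heparan sulfate proteoglycan that binds slits, at -0.49 (0.000536). The only partner past the fold threshold was Plxdc1, a transmembrane protein related to plexins by sequence, at -1.14 (0.0187, and up to 0.0674 without 1 library). With the sample number as a block 18 were higher and 18 lower, or 25.0% each, beside 8.68% and 8.02% of all genes. Against spironolactone 10 were higher and 8 lower, or 13.9% and 11.1%, beside 4.93% and 3.96% of all genes. Among the higher ones were Vav2, an exchange factor that binds Eph receptors, at 1.19 and Draxin, a ligand of Dcc, at 1.05 (adjusted p = 0.0219, and up to 0.196 without 1 library).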

How the data were processed

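Poly(A) RNA-seq of 12 libraries, 4 per treatment, was analysed. The authors deposited a table for each of the 3 pairs of treatments, whose signal values are read counts scaled by a size factor set for each library within that table. Columns of DESeq2 results, a log2 fold change and a p-value per gene computed by the authors, were deposited with them and were not used. The submitters' processing notes name HISAT2 2.0.5, featureCounts 1.5.0-p3 and mm39, while the study's methods name mm9. Gene starts in the tables matched mm9 for 0 of 67 members. Whether counting used the strand is not given in the sources used here, so reads of Plxna4 and of its opposite-strand gene Plxna4os2 cannot be told apart where they overlap.

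All values (100%, within 0.01 reads) were whole multiples of a step in their library, which gave the reads back. For 2 libraries the reads came from the other table that holds them. Totals ran from 19136923 to 30219185 reads, with a median of 23833430.5. Because the tables hold normalized counts, limma 3.58.1 (R 4.3.3, with a trend) was fitted to log2(value + 1) over all genes of a table, with its 8 libraries, no covariate and Benjamini-Hochberg adjustment at 0.05. Folds are on that scale, and for the low-count Epha5 this gave -1.89, against -1.73 with DESeq2 and -1.69 with edgeR. The script was tested on simulated counts of independent libraries, without a sample number effect and with changes larger than most of those called here. That test does not cover correlated libraries or small changes. Members were taken by a rule on symbols alone, which used no expression values. That rule and the lists were fixed with earlier results of these data known. Named were members past the threshold with a mean of at least 10 (per-library values from an absolute log2 fold change of 0.5), the highest member of each family, those of smallest p for spironolactone, expressed partners of members past a log2 fold change of 1, and leading pathway genes. Per-library values of smaller changes (Nrp1, Nrp2, Robo1, Slit2, Ntn4, Unc5b and Unc5c) were chosen after their values were seen.

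Deviations of libraries with the same sample number correlated at 0.218 on average (0.135 to 0.291 over 24 pairs), and those with the same replicate number at -0.0034 (-0.313 to 0.291). The pairing by sample number thus comes from the data, since the labels name neither number as the mouse. Alternatives were DESeq2 1.42.0 and edgeR 4.0.16 on the recovered reads, TMM scaling, a pseudocount of 0.5, a filter at a mean of 10, blocks on either number, correlated plates and leaving out each library.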

Additional observations from a re-analysis of the deposited data

Results flagged for a closer look

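Among the guidance genes described by library, 6 of 82 groups of 4 held a library far from the rest, where chance gives about 1 in 20. Groups of the same treatment in different tables hold the same reads, so the 82 are not independent. The 6 include the same Sema3e library in both of its tables, so they do not show an excess over chance. Sema3e had 911.3 normalized counts in aldosterone 2_2 and 736.3 to 756.8 in the other aldosterone libraries of the table with vehicle. The same library had 936.3 in the table with spironolactone, where the others had 758.7 to 777.7. Unc5c was at 1662 in aldosterone 2_2 and at 1600 to 1607 in the others. Among spironolactone libraries, Ephb3 was at 2235 in 1_1 and 1878 to 1904 in the rest, Ephb4 at 1724 in 1_2 and 1850 to 1875 in the rest, and Sema3g at 13.94 in 1_1 and 28.41 to 30.23 in the rest.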

How the results depend on the processing

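No called member of either aldosterone comparison changed direction under any alternative run. When sample number entered as a replicate block, the guidance genes called against vehicle went to 10 higher and 25 lower, the pathway genes to 18 and 18 (and 2 lower past the fold threshold), and against spironolactone the lower calls went to 24 guidance and 15 pathway genes. The block ended no call of a member or pathway gene. Over all genes it took the calls from 2847 to 4563 against vehicle and from 2454 to 3974 against spironolactone. Under the other settings the guidance genes against vehicle stayed at 6 to 7 higher and 15 to 16 lower, and against spironolactone at 9 higher and 10 to 13 lower. TMM scaling left 1 lower guidance gene past the fold threshold against vehicle. DESeq2 and edgeR gave 1 higher pathway gene past the fold threshold against vehicle and 1 lower against spironolactone. Leaving out each library in turn, the guidance genes against vehicle ranged from 4 to 6 higher and 9 to 13 lower (9 without vehicle 2_2), and past the fold threshold from 1 to 1 and 0 to 4. The pathway genes ranged from 7 to 9 and 3 to 8 (3 without aldosterone 1_2), and past the fold threshold from 0 to 1 in each direction. Against spironolactone the guidance genes ranged from 5 to 9 higher and 5 to 9 lower, and past the fold threshold from 1 to 2 and 0 to 2. The pathway genes ranged from 7 to 9 and 3 to 5, and past the fold threshold from 1 to 2 and 0 to 0. Of 21 calls against vehicle 13 were kept without each library, and of 20 against spironolactone 9 were. For spironolactone against vehicle the counts of guidance and pathway genes were 0 under each setting.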
